A study of Chrysanthemum x morifolium with 4 samples.

Results

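Of the 93837 unigenes measured in chrysanthemum leaves, 214 (0.228%) were high in both libraries from cold-acclimated plants and low in both libraries from plants that had not been acclimated. They were chosen on the deposited FPKM values, which are counts divided by the unigene's length and by the library's total. The smaller of the values in the 2 acclimated libraries had to be at least 10 FPKM and at least 4 times the larger of the values in the 2 unacclimated libraries. A unigene is a transcript sequence pieced together from the reads. No gene names come with the unigenes in the table, and the 214 are described by identifier, level, response and length.

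The plants were tissue-cultured Chrysanthemum x morifolium seedlings of the strain Jinba, labelled 20 days old, and leaves were taken from 4 groups. The first group was held at 4 °C for 24 h and then at -4 °C for 4 h (acclimated and frozen), and the second was held at 4 °C for 24 h only (acclimated). The third went straight to -4 °C for 4 h (frozen without acclimation), and the last stayed in normal conditions (control). Leaves of 3 replicates were mixed into 1 library per group, and variation among plants was therefore not measured. No difference below has a replicate check or a p-value, and every interval covers counting error only. All groups had grown under a 16 h photoperiod at 25 °C by day and 22 °C by night. The libraries held 14024558 counts (acclimated and frozen), 15179341 counts (acclimated), 14345704 counts (frozen without acclimation) and 15781435 counts (control). Because leaves were sequenced in bulk, a change in the RNA of each cell and a change in the mix of cells cannot be told apart, and no leaf marker could be checked without gene names.

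Cold acclimation is the gain of freezing tolerance that many temperate plants make during a spell of low temperature above freezing. In Arabidopsis, chilling induces transcription factors of the CBF family within hours, and these switch on cold-regulated genes for dehydrins and other protective proteins, for enzymes that make soluble sugars, and for changes in membrane lipids. The products of such genes build up before ice forms, which is why a plant that has been chilled first can meet a later frost with them already in place. None of the 214 unigenes could be matched to such a gene here.

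As the choice fixes, the 214 unigenes stood far higher in the acclimated libraries. Their median level was 44.2 FPKM in the acclimated and frozen library, 49.1 FPKM in the acclimated library, 6.07 FPKM in the library frozen without acclimation and 5.46 FPKM in the control. The lowest and highest members were at 10.6 and 2508 FPKM in the acclimated and frozen library and at 10.5 and 2798 FPKM in the acclimated library. In the library frozen without acclimation they were at 0.104 and 468 FPKM, and in the control at 0 and 162 FPKM. The 4 libraries therefore formed a high pair and a low pair, and within each pair the medians lay close together. These values chose the members and are a description without a test.

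**Figure D1:**
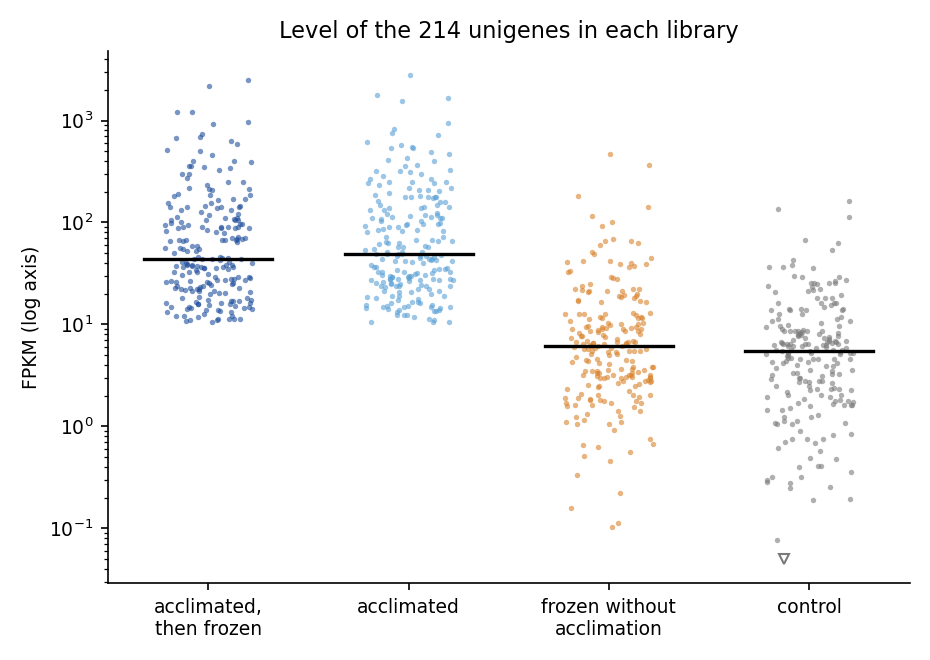
FPKM of each of the 214 unigenes (points, log axis) in the 4 libraries, with the median of each library as a black bar. The open triangle marks the member listed at 0 in the control, drawn below the axis values of the others. The medians are 44.2, 49.1, 6.07 and 5.46 FPKM, from left to right.

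Together the 214 unigenes made up 3.93% of the acclimated and frozen library's counts and 4.52% of the acclimated library's. They held 0.520% in the library frozen without acclimation and 0.341% in the control. The exact (Clopper-Pearson) 95% intervals were 3.919 to 3.939%, 4.506 to 4.527%, 0.5165 to 0.524% and 0.3382 to 0.3439%. Among the 100 most abundant unigenes of a library there were 9 members after acclimation and freezing, 8 after acclimation, and 0 after freezing alone or in the control. The choice fixes a gap of at least 4-fold in the shares between acclimated and unacclimated libraries, and in part the contrast in the top 100. Both are descriptions, and the intervals lend the gap no support. The counts were spread over many members. The 10 leading members of each library held 38.3%, 37.6%, 41.9% and 33.4% of member counts in the same order of libraries, and 18, 19, 15 and 22 members were needed to reach 50%.

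**Figure D2:**
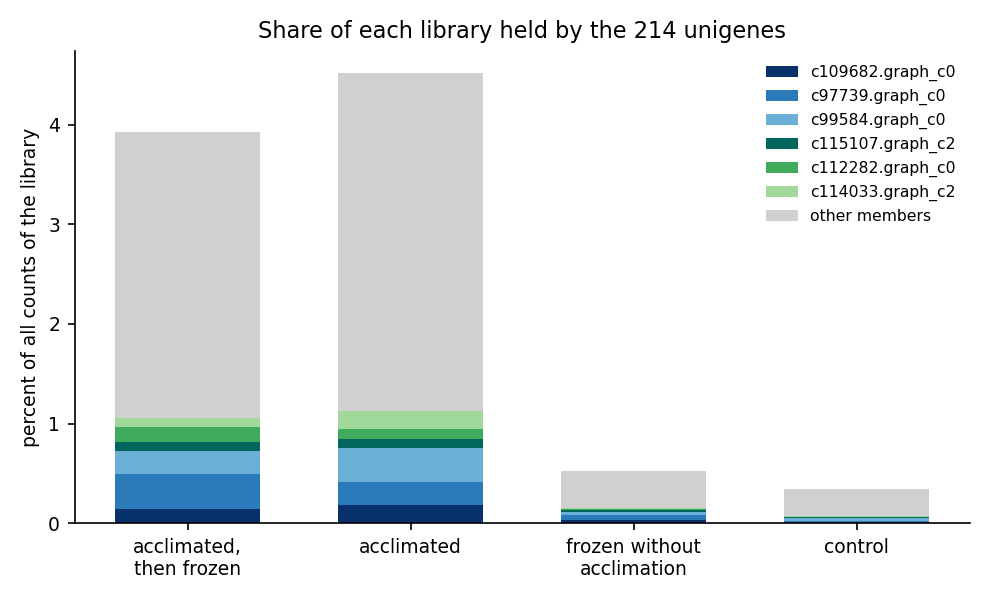
Percent of all counts of each library held by the 214 unigenes (bar height), with the 6 most abundant members in colour and the other members in grey. The bars reach 3.93% and 4.52% in the acclimated libraries, against 0.520% and 0.341% in the unacclimated ones, a gap that the choice builds in.

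The most abundant members stood near the top of the acclimated libraries. Lengths given here are those implied by each unigene's count and FPKM. c97739.graph_c0, with an implied length of 1399 bases, stood at 2508 FPKM in the acclimated and frozen library, 1650 FPKM in the acclimated library, 363 FPKM in the library frozen without acclimation and 162 FPKM in the control. It ranked 9, 23, 187 and 471 among all unigenes of those libraries, so it was already an abundant transcript in unstressed leaves. c99584.graph_c0 (1904 bases) stood at 1207, 1796, 182 and 136 FPKM in the same order, and was highest before freezing. c115107.graph_c2 (973 bases) held nearly the same level in both acclimated libraries, with 964 FPKM in the acclimated and frozen library and 939 FPKM in the acclimated library, against 142 FPKM after freezing alone and 113 FPKM in the control.

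All of the other leading members stood higher in the library frozen without acclimation than in the control, c109682.graph_c0 by far the most. c112282.graph_c0 (1250 bases) had 1211 FPKM in the acclimated and frozen library, 758 FPKM in the acclimated library, 117 FPKM after freezing without acclimation and 43.3 FPKM in the control. c114033.graph_c2 (1163 bases) had 730, 1557, 91.5 and 29.5 FPKM in the same order. c109682.graph_c0 (648 bases) had 2171, 2798, 468 and 2.25 FPKM, and of the 6 it was the scarcest in the control and the most abundant after freezing alone. It met the limit of the choice with a ratio of 4.64, and it was 1 of 4 members that also stood at 10 FPKM or more and at least 4 times the control in all 3 cold-treated libraries. The other members of that kind, named after their values were seen, were c113391.graph_c0, c86126.graph_c0 and c101527.graph_c0.

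**Figure D3:**
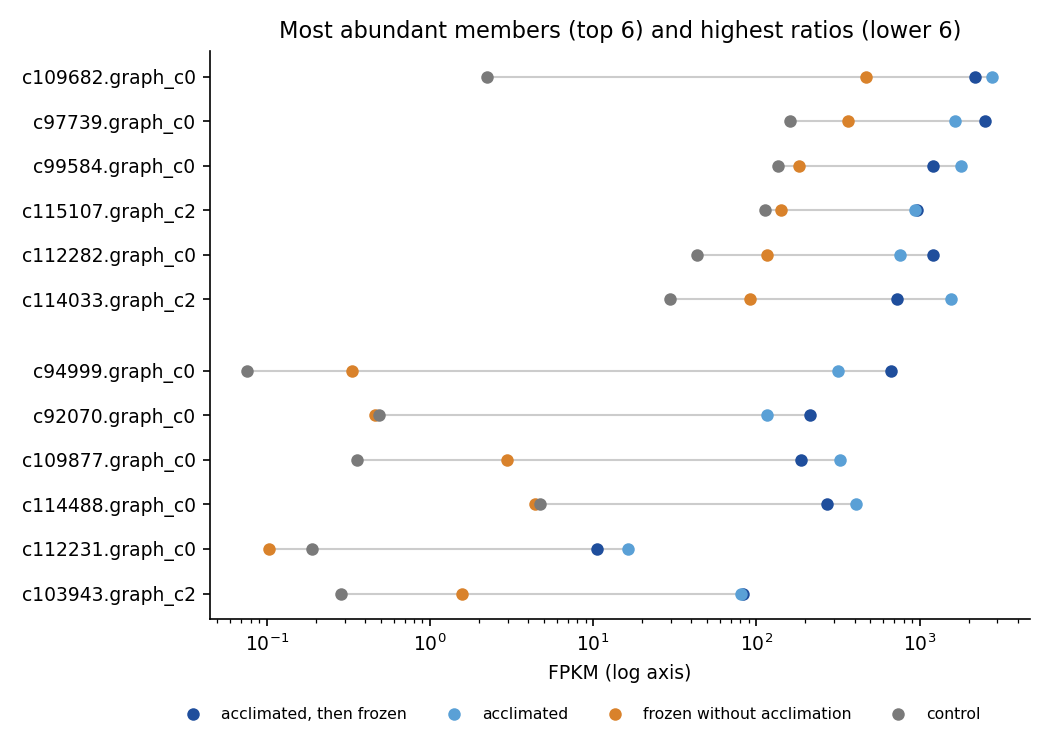
FPKM (log axis) in the 4 libraries, by colour, of the 6 most abundant members (upper rows) and of the 6 with the highest ratio of acclimated to unacclimated levels (lower rows). c109682.graph_c0 stands at 2798 FPKM in the acclimated library against 2.25 FPKM in the control, and c94999.graph_c0 at 666 FPKM in the acclimated and frozen library against 0.336 FPKM in the library frozen without acclimation.

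Members also differed in how sharply the acclimated and unacclimated libraries were set apart. The ratio of the smaller acclimated value to the larger unacclimated one had a median of 5.81. It was 8 or more for 66 members, 16 or more for 23 and 32 or more for 13. The highest belonged to c94999.graph_c0 (831 bases), with 7763 counts after acclimation and freezing and 3994 counts after acclimation, against 4 counts after freezing alone and 1 count in the control. Its log2 ratio of acclimated and frozen over frozen without acclimation had a 95% interval of 9.86 to 13.09, a range set by the few unacclimated counts.

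Next came c92070.graph_c0 (910 bases), which was at 213 FPKM in the acclimated and frozen library and 116 FPKM in the acclimated library, against 0.459 FPKM after freezing alone and 0.487 FPKM in the control. Its values after freezing alone and in the control were close. Both are low and rest on few counts, so a change between them is not excluded. c114488.graph_c0 (3487 bases) also had close values after freezing alone and in the control. It had far more counts, at 13272, 21575, 221 and 259 in the same order of libraries. Its log2 ratio of freezing alone over control was -0.25 (95% interval -0.52 to 0.01). c112231.graph_c0 (2012 bases) was among the sharpest by ratio (55.9) although it was scarce, at 10.6, 16.4, 0.104 and 0.189 FPKM.

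Of the remaining members with the highest ratios, c109877.graph_c0 (891 bases) had 187 FPKM in the acclimated and frozen library, 327 FPKM in the acclimated library, 2.97 FPKM after freezing alone and 0.356 FPKM in the control. c103943.graph_c2 (668 bases) had 83.0, 80.2, 1.57 and 0.285 FPKM. In both of these the level after freezing alone was above that of the control, from 38 against 5 counts and from 15 against 3 counts.

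The level in the control divided the members into scarce and already active unigenes. In the control 27 members were under 1 FPKM, 135 were at 1 to 10 FPKM and 52 were at 10 FPKM or more. The 27 scarce ones had medians of 18.4 FPKM (acclimated and frozen), 22.0 FPKM (acclimated), 1.26 FPKM (frozen without acclimation) and 0.406 FPKM (control). The 52 active ones had medians of 162, 207, 23.7 and 20.9 FPKM in that order, and held 65.5%, 64.4%, 69.4% and 72.3% of member counts. Most member counts therefore came from unigenes with a sizeable level in control leaves. The scarce members held 4.44% of member counts after acclimation and freezing and 3.10% after acclimation. These shares are partly built in, since a member active in the control had to stand at least 4 times higher after acclimation. The active members were also longer (median 1637 bases) than the scarce ones (910 bases), and counts grow with length.

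The values just inside and outside the limits show that the boundary cut a continuous range. c106963.graph_c1, with 38.4 FPKM as its smaller acclimated value and 9.59 FPKM as its larger unacclimated value, was included at a ratio of 4.006. c106535.graph_c0 was included at 4.008. c99822.graph_c0 was left out at 3.98, with 69.2 and 17.4 FPKM, and c95498.graph_c0 was left out at 3.98 with 11.4 and 2.88 FPKM. At the limit of level, c90549.graph_c0 was included with 10.5 FPKM and c112231.graph_c0 with 10.6 FPKM, whereas c98594.graph_c0 and c93381.graph_c0 were left out at 9.91 and 9.89 FPKM.

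The choice can be read as a pair of comparisons that share no library. In the frozen state 447 unigenes stood at 10 FPKM or more in acclimated leaves and at least 4 times the unacclimated level. In the unfrozen state 908 did so. Both conditions were met by 271 unigenes, which is 60.6% of the first list and 29.8% of the second. The lists were drawn from 93837 unigenes, of which 15375 had 10 FPKM or more in some library. The same values chose the members, so the overlap is a description without a test. Of these 271, 57 were not members because a ratio across states was under 4. For 46 of them the acclimated library was under 4 times the library frozen without acclimation, and for 11 the acclimated and frozen library was under 4 times the control.

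The first question that the choice did not settle was what the freezing step did to these unigenes in acclimated leaves. Most members stood within 2-fold of their level before freezing. The median log2 ratio of acclimated and frozen over acclimated was -0.11, with quartiles of -0.43 and 0.19, beside a median of -0.07 over the 15370 unigenes with 10 FPKM or more in some library. Ratios here are of counts scaled by TMM, a scaling that sets the bulk of unigenes to equal levels. By this measure 87 members were above 0 and 127 (59.3%) below, beside 57.2% below among unigenes with 10 FPKM or more in some library. For 179 members (83.6%) the whole 95% interval lay inside 2-fold, beside 74.9% of unigenes with 10 FPKM or more in some library. The choice asks for a high level in both of these libraries. It keeps out unigenes that were strongly lower after freezing, and those that were strongly higher after freezing from a low level before it. The share inside 2-fold, and the shares called higher and lower at this step below, are therefore partly built in.

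A unigene is called higher or lower below where its whole 95% interval lay beyond 2-fold. At the freezing step after acclimation 9 members (4.21%) were called higher, beside 3.46% of all 77713 unigenes with a count and 8.33% of those with 10 FPKM or more in some library. The call of lower was given to 6 members (2.80%), beside 0.926% of all and 1.80% of those with 10 FPKM or more. The largest gain was in c111093.graph_c1 (1234 bases), with 52.8 FPKM in the acclimated and frozen library and 13.2 FPKM in the acclimated one, against 3.11 FPKM after freezing alone and 1.13 FPKM in the control. Its log2 ratio was 2.07 (95% interval 1.86 to 2.28).

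Gains also marked c80955.graph_c0 (253 bases), at 105, 35.2, 1.93 and 3.26 FPKM in that library order, and c89577.graph_c0 (506 bases), at 247, 83.2, 3.58 and 1.63 FPKM. c94999.graph_c0 was among the 9, with a log2 ratio of 1.15 (1.09 to 1.20). In each of these unigenes the level after freezing lay above a level that was already high at 4 °C. The lowest ratio belonged to c112368.graph_c0 (1024 bases), which had 71.1 FPKM in the acclimated and frozen library and 252 FPKM in the acclimated one, against 16.6 FPKM after freezing alone and 6.81 FPKM in the control. Its log2 ratio was -1.75 (-1.85 to -1.65).

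Of the other members called lower at this step, c111349.graph_c0 (2040 bases) had 55.8, 147, 7.62 and 6.74 FPKM and c91190.graph_c0 (1765 bases) had 138, 363, 27.8 and 24.9 FPKM in that order. For both, the log2 ratio of freezing alone over control was near 0, at 0.01 (-0.26 to 0.29) for c111349.graph_c0 and 0.00 (-0.16 to 0.15) for c91190.graph_c0. The level of these unigenes was thus lower after freezing in acclimated leaves and near that of the control in unacclimated leaves.

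Freezing without acclimation was the other comparison. The choice does not use its ratio, but it caps both of these libraries, which keeps out unigenes that freezing alone brought near the acclimated level, so the median and the shares below are partly built in. The median log2 ratio of frozen without acclimation over control was 0.07 over the 214, with quartiles of -0.29 and 0.65, and it was 0.07 also with the member at 0 counts in the control set to 3 counts. Over the 15373 unigenes with 10 FPKM or more in some library it was 0.01. Scaling by total counts moves every log2 ratio of this comparison by 0.16. For 113 members (52.8%) the interval lay inside 2-fold, beside 74.6% of unigenes with 10 FPKM or more. Depth enters this share, since the members had a median of 236 counts over these 2 libraries and 63 had under 100. Among the 151 members with at least 100 counts the share inside 2-fold was 69.5%, beside 77.0% of the 14765 such unigenes with 10 FPKM or more.

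In this comparison 18 members (8.41%) were called higher, beside 3.03% of all 81889 unigenes with a count and 8.05% of those with 10 FPKM or more. The call of lower was given to 2 members (0.935%), beside 1.27% and 2.53%. The most abundant members supplied many of the higher calls, with 11 among the 55 members whose smaller acclimated value was 100 FPKM or more, 4 among the 73 at 30 to 100 FPKM and 3 among the 86 at 10 to 30 FPKM. The chance of a call grows with the count, so these numbers do not compare the classes at equal depth. c109682.graph_c0 had the highest log2 ratio, 7.51 (6.95 to 8.20), followed by c113207.graph_c0 with 4.78 (3.55 to 6.84), from 125 counts after freezing alone and 4 in the control. c112663.graph_c0 had 12 counts after freezing alone and 0 in the control, and the lower 95% limit of its log2 ratio was 1.45.

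Both members called lower by freezing alone came from 1 assembly component, the unit in which the assembly identifiers group unigenes. c113310.graph_c1 (2910 bases) had 110 FPKM in the acclimated and frozen library, 118 FPKM in the acclimated library, 8.53 FPKM after freezing alone and 18.0 FPKM in the control. c113310.graph_c0 (576 bases) had 81.5, 83.8, 7.14 and 18.0 FPKM in the same order. Their log2 ratios of freezing alone over control were -1.24 (-1.42 to -1.06) and -1.49 (-1.96 to -1.06). With libraries scaled by total counts 0 members were called lower here. Ratios lower than these were found in c103012.graph_c0 (3 counts after freezing alone, 12 in the control), c105536.graph_c2 (18 and 56 counts) and c88678.graph_c0 (17 and 50 counts), whose intervals reached inside 2-fold.

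**Figure D4:**
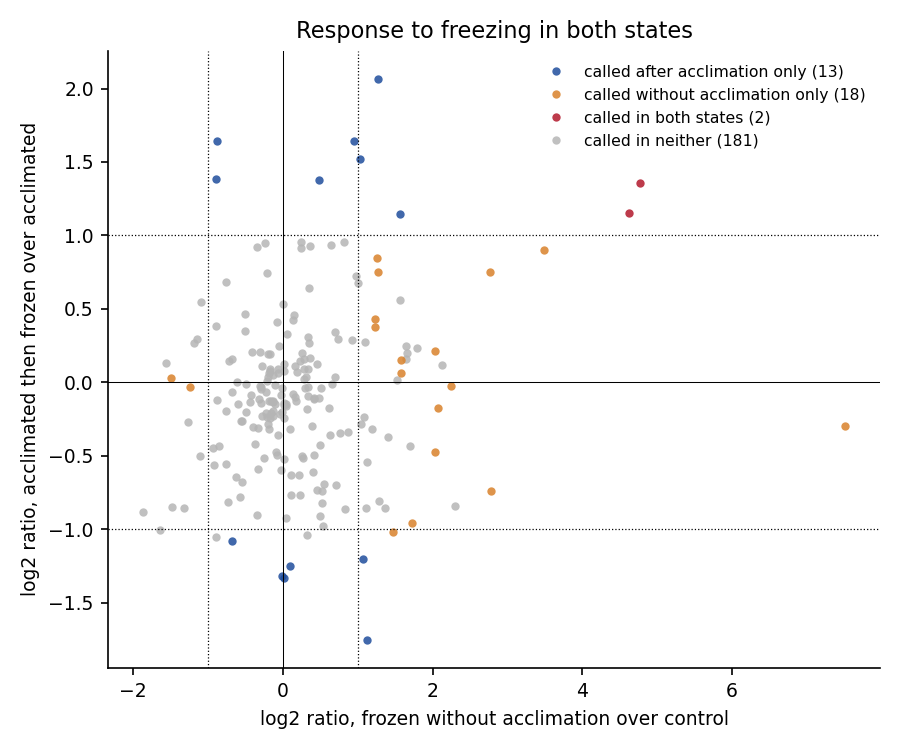
Log2 ratios of TMM-scaled counts for the 214 unigenes, with freezing without acclimation on the horizontal axis and freezing after acclimation on the vertical axis. Colours give the calls, dotted lines mark 2-fold, and 181 members were called in neither state. The member listed at 0 in the control is drawn with a prior count of 0.5.

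Taking both freezing steps side by side, 181 members were called in neither, 2 were higher in both, 7 were higher after acclimation alone and 6 lower after acclimation alone. A further 16 were higher without acclimation alone and 2 were lower there. No member had opposite calls in the 2 states. The 16 called higher without acclimation alone had medians of 265 FPKM (acclimated and frozen), 243 FPKM (acclimated), 32.1 FPKM (frozen without acclimation) and 5.20 FPKM (control), while the 181 had medians of 37.9, 44.4, 5.70 and 5.54 FPKM. The calls made these groups, so the medians of the unacclimated libraries partly restate them. A call is also likelier at a higher count, so the groups are not compared at equal depth. The members called higher in both states were c113207.graph_c0 (219, 89.8, 8.60 and 0.250 FPKM) and c112663.graph_c0 (54.9, 26.0, 0.516 and 0 FPKM). For 105 members both intervals lay inside 2-fold. No share over all unigenes is given for these combinations, which therefore describe the members only. Across the 208 members with at least 10 counts in the unacclimated libraries the freezing ratios of the 2 states, which share no library, were weakly related (Pearson r 0.15, Spearman rho 0.08). Unigenes are not independent, and many of these ratios rest on few counts.

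The difference between the freezing responses was estimated for each member from all 4 libraries. It equals the difference between what acclimation did in frozen and in unfrozen leaves, and its interval was again set against 2-fold. The response to freezing was higher after acclimation than without it by this limit for 5 members (2.34%), beside 1.48% of all 65765 unigenes compared and 3.74% of those with 10 FPKM or more. It was lower after acclimation for 29 members (13.6%), beside 1.99% of all and 4.55% of those with 10 FPKM or more. The choice fixes a floor on every ratio of an acclimated to an unacclimated library, which sets no limit on this difference. The members were still chosen on the same 4 libraries, and how far the choice shapes these shares was not tested. Of the 29, 13 had been called higher by freezing alone, 4 had been called lower by freezing after acclimation, and 12 had neither call.

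The lowest difference was in c109682.graph_c0 (-7.80 on the log2 scale), which stood at 468 FPKM after freezing alone against 2.25 FPKM in the control, and in acclimated leaves was already at 2798 FPKM before freezing. In c114033.graph_c2 the difference was -2.49, with a log2 freezing response of -1.02 after acclimation and 1.47 without it. The 5 members with a higher response after acclimation were c80955.graph_c0 (difference 2.52), c91564.graph_c0 (2.27), c113310.graph_c0 (1.52), c104832.graph_c0 (1.44) and c113310.graph_c1 (1.21), named after their values were seen. c104832.graph_c0 had 132, 113, 9.17 and 18.2 FPKM, so its level was lower after freezing alone than in the control and much the same in both acclimated libraries. c91564.graph_c0 had 36.7, 14.8, 0.655 and 1.12 FPKM. With libraries scaled by total counts 0 members passed this limit on the higher side.

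Length was not used by the choice, although FPKM contains it. The implied length of the members had a median of 1338 bases and quartiles of 866 and 1927 bases. The shortest member was c70241.graph_c0 (228 bases, at 12.2, 18.2, 1.22 and 2.50 FPKM) and the longest c100312.graph_c0 (4858 bases, at 88.3, 176, 18.8 and 16.3 FPKM). Unigenes with 10 FPKM or more in some library had a median of 1215 bases, and all 93837 unigenes had a median of 407 bases. The 119 unigenes with the mirror pattern, low in both acclimated libraries by the same limits, had a median of 1115 bases, and the 73 that were high only in the acclimated and frozen library had a median of 742 bases. These are descriptions and were not tested.

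**Figure D5:**
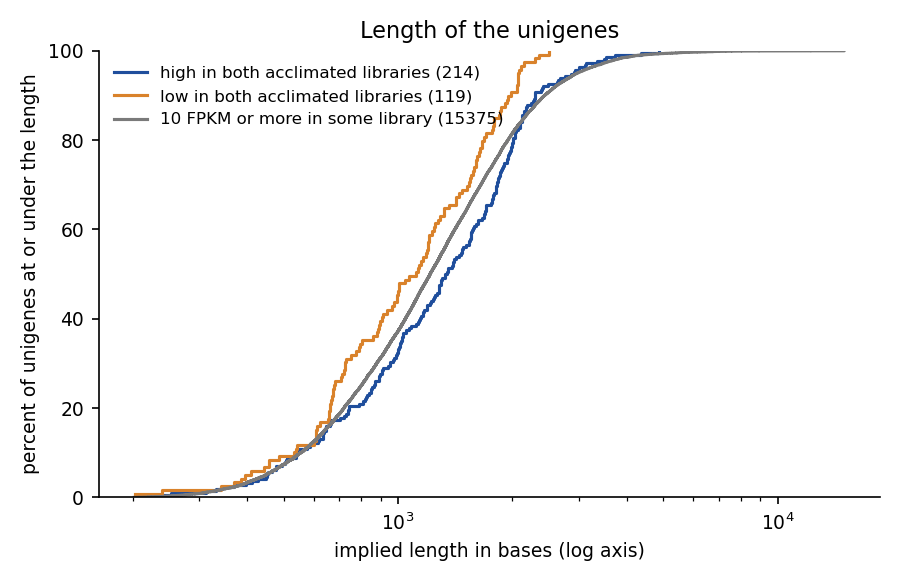
Cumulative percent of unigenes against implied length in bases (log axis) for the 214 members, the 119 unigenes low in both acclimated libraries and the 15375 unigenes with 10 FPKM or more in some library. The medians are 1338, 1115 and 1215 bases.

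The implied length was not a whole number, to within 0.005 bases, for 115 members (53.7%), beside 71.7% of unigenes with 10 FPKM or more and 25.1% of all. A length of this kind is not a plain base count of a single sequence. No source used here says how the authors set it.

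The identifiers group unigenes into assembly components, whose members may be related sequences. The 214 unigenes came from 207 components. Another unigene, member or not, shared the component for 47 members (22.0%), beside 16.8% of unigenes with 10 FPKM or more and 6.88% of all. In 7 components there were 2 members each, 14 in all, so these are not independent.

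The pairs had like freezing ratios after acclimation in 6 of the 7 components. c105536.graph_c3 and c105536.graph_c2 had 214 and 141 FPKM where acclimated and frozen, 469 and 298 FPKM where acclimated only, 3.18 and 1.09 FPKM after freezing alone and 5.28 and 3.09 FPKM in the control. c111416.graph_c2 had 398, 826, 49.0 and 30.1 FPKM in that library order, and c111416.graph_c1 had 231, 429, 10.4 and 6.41 FPKM. Their log2 freezing ratios after acclimation were -0.98 and -0.82. c114821.graph_c1 (247, 210, 36.4 and 25.6 FPKM) and c114821.graph_c0 (142, 122, 20.9 and 9.82 FPKM) were both higher after freezing in each state, with log2 ratios of 0.31 and 0.29 after acclimation and of 0.34 and 0.93 without it.

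The scarcer pairs gave the same picture in the acclimated libraries. c103226.graph_c0 had 71.5, 65.5, 8.60 and 6.40 FPKM and c103226.graph_c1 had 34.4, 33.9, 3.33 and 3.34 FPKM. c104627.graph_c0 had 67.0, 58.5, 3.08 and 6.32 FPKM and c104627.graph_c1 had 43.4, 40.8, 3.19 and 4.61 FPKM. In these 6 components, c113310 included, the freezing ratios of partners after acclimation differed by at most 0.16 on the log2 scale, and those without acclimation by at most 0.75. The exception was c109877, whose unigene c109877.graph_c1 had 15.9, 17.4, 2.05 and 2.95 FPKM. It was 18.8 times scarcer than c109877.graph_c0 in the acclimated library but more abundant than it in the control, and the log2 ratios of freezing alone over control were -0.68 (-1.29 to -0.10) in c109877.graph_c1 and 2.78 (1.55 to 4.60) in c109877.graph_c0.

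The unigenes that shared a component with a member without being members had not met the limits of the choice, which therefore shaped this group. There were 42 of them, 24 with at least 100 counts over the 4 libraries. The shares set beside the 24 are of unigenes under another filter, or under none but a count. In frozen leaves 8 of these 24 were called higher with acclimation than without it, beside 3.42% of all 81786 unigenes compared and 11.6% of those with 10 FPKM or more. In unfrozen leaves 11 were called higher after acclimation than in the control, beside 4.79% of all 78314 and 15.4% of those with 10 FPKM or more, and 7 were called higher in both. Reads may be split between near-identical sequences, and the part this plays was not tested.

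Some neighbours moved with the member at a higher unacclimated level. c114033.graph_c0 (2367 bases), the neighbour of c114033.graph_c2, had 595 FPKM in the acclimated and frozen library, 1030 FPKM in the acclimated library, 248 FPKM after freezing alone and 262 FPKM in the control. c112881.graph_c1 had 561, 573, 202 and 164 FPKM. Others went the opposite way, such as c111416.graph_c0 (3556 bases), with 19.9, 20.8, 36.7 and 85.9 FPKM beside the members c111416.graph_c2 and c111416.graph_c1, and c112282.graph_c1 (1539 bases), with 9.55, 13.7, 27.0 and 26.2 FPKM beside c112282.graph_c0. These 4 neighbours were named after their values were seen.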

How the data were processed

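RNA-seq of leaves gave 1 library for each of 4 treatments. The whole-number counts per unigene were deposited by the authors and are not normalized. The deposited FPKM columns could be rebuilt from the counts, the total of each library and 1 length per unigene (largest relative difference 1.98e-08), which is the implied length given above. Per the submitters' processing notes, Bowtie 0.12.2, Cufflinks and the mouse build mm8 were named. The assembler, the rule for counting and the link of a mouse build to these identifiers were not given in the sources used here.

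Members were taken from the FPKM columns. The members, sets and limits were chosen with earlier results of these data known. Library sizes were adjusted by TMM with edgeR 4.0.16 (R 4.3.3), used for scaling only. Ratios were given exact (Clopper-Pearson) 95% intervals from the binomial share of both counts (scipy 1.17.1), and log2 ratios used a prior count of 0.5. The difference between freezing responses has a delta-method interval. No model was fitted between single libraries. Calls were run over all unigenes with a count. The call rule was tried on simulated counts with counting error only, with changes placed in unigenes of at least 100 counts. That trial does not cover variation between plants or changes in scarcer unigenes. A count of 0 allows up to 3 counts, which is 0.190 to 0.214 CPM. Intervals cover counting error only, since no source names molecular identifiers.

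Except where the text says that they were named after their values were seen, members were named by a fixed rule: the 6 highest by level and by ratio, the 3 highest and lowest freezing ratios in each state, the leader of each combination of calls, the extremes of length and of the difference, the members of shared components, and the unigenes next to each limit. Alternatives covered scaling, limits, pseudocount, a count filter, the call rule and the prior count.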

Additional observations from a re-analysis of the deposited data

How the results depend on the processing

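With 1 library per treatment nothing shows how far the values would vary between plants, and depth limits the ratios of the unacclimated libraries most, where 63 members had under 100 counts over both. No paired analysis was possible because each treatment has 1 library and no result comes from a test. The number of members was 397 at a ratio limit of 3 and 138 at a limit of 5. It was 278 and 306 with FPKM rescaled by TMM and by median-of-ratios factors, with all 214 included in both, and 152 where the lower 95% limit of all 4 ratios had to reach 4.

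The shares of counts follow, in the order acclimated and frozen, acclimated, frozen without acclimation and control. They were 4.39, 5.002, 0.628 and 0.412% with FPKM rescaled by TMM and 4.80, 5.49, 0.744 and 0.482% with median-of-ratios factors. A ratio limit of 3 gave 5.84, 6.58, 1.01 and 0.744%, and a limit of 5 gave 2.56, 2.98, 0.268 and 0.196%. A level limit of 5 FPKM gave 3.98, 4.57, 0.527 and 0.346%, and 20 FPKM gave 3.83, 4.41, 0.508 and 0.331%. Ratios on FPKM + 1 gave 3.73, 4.28, 0.478 and 0.303%, and the lower 95% limit gave 3.58, 4.03, 0.449 and 0.276%.

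At the freezing step after acclimation, 58 members were higher and 93 lower where an interval clear of equal levels was enough. There 11 were called lower with total counts, 2 with a ratio limit of 5 and 12 where log2(FPKM + 1) had to differ by at least 1, and the median log2 ratio was -0.18 with total counts. For freezing without acclimation, 71 were higher and 39 lower where an interval clear of equal levels was enough. There 30 were higher by log2(FPKM + 1), 0 were called lower with total counts and 1 with a ratio limit of 5. The freezing responses differed for 38 members (higher after acclimation) and 78 (lower) where the interval only had to exclude 0. With total counts 0 were higher, and with a ratio limit of 5 the number lower was 19. The counts from intervals clear of equal levels or of 0 have no shares over all unigenes beside them and describe the members only. Causes were not tested. Of 107 alternatives, 58 kept the result within 1.5 times for counts, or within the interval of the share or the median. The 58 include the results under a filter of at least 100 counts over the 4 libraries. That filter could change nothing, since every member had at least 102 counts over the 2 acclimated libraries.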
